A study of Mus musculus with 4 samples.

Results

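This report describes 6 mouse genes whose human counterparts lie at loci tied by human genetics to the risk of Alzheimer's disease and which, in brain, are known mainly from microglia and macrophages: Ms4a6b, Ms4a6c, Ms4a6d and Ms4a7 of the Ms4a family, the sialic acid receptor Cd33 and the actin regulator Abi3. They were chosen by name, and their counts were taken from a table in which 37539 transcripts, summed by gene symbol, gave 22919 features. An exactly equal symbol was present for 3 of the 6 (Ms4a6b, Ms4a6d and Ms4a7). Ignoring capitals added Cd33 and Abi3, for 5 in all, and Ms4a6c was found only by its transcript identifier, because its row had a blank symbol. None was skipped, and each reached the minimum of 10 counts summed over the 4 libraries.

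The cortices of 4 male mice aged 12 months were compared, 2 APPswe/PS1ΔE9 double transgenic (APP) and 2 wild type (WT), all on a C57BL/6 background, with C57BL/6J controls and a transgenic line that goes back to the B6.Cg line of that name. Its transgenes, a mouse and human APP with the Swedish mutation and a human PS1 without exon 9, are both driven by mouse Prnp promoter elements, so transgene RNA is not limited to the cells that express App. Total RNA was cleared of ribosomal RNA and sequenced strand by strand, and reads were counted on each transcript. Library WT-1 held 43881196 counts, WT-2 held 35623228, APP-3 held 28525117 and APP-4 held 31392983.

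Microglia are the resident macrophages of the brain and gather around amyloid deposits. Ms4a genes encode small proteins that cross the membrane several times and associate with other receptors, and a human MS4A locus is tied to the level of soluble TREM2, a receptor of microglia. CD33 is a Siglec, a lectin that binds sialic acid on neighbouring cells, and the human protein dampens phagocytosis through inhibitory motifs that recruit tyrosine phosphatases. ABI3 belongs to the Abi family, whose members sit in the WAVE complex and carry signals of the small GTPase Rac to branched actin, which shapes processes and phagocytic cups.

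The genotype labels were checked first with App, on which transgene reads can be counted, and Prnp. App counts were 37675 and 32094 in WT-1 and WT-2 but 77727 and 73975 in the APP pair (log2 fold change 1.53). Prnp counts were 23138 and 18967 in WT but 53838 and 50246 in APP (log2 fold change 1.72). Both genes were higher in 2 of 2 APP libraries, with adjusted p = 2.82e-06 and 1.83e-06 by the quasi-likelihood test of edgeR, with Benjamini-Hochberg (BH) adjustment over all 22919 features. Every adjusted p given here is of this kind unless another test or setting is named. In such a setting the adjustment is over the features of its own fit. A gene is called, and said to have risen or fallen, where its adjusted p is under 0.05 and the change is 1.5-fold or more.

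The libraries were not equally alike. Between the 2 replicates of a group the chi-square per degree of freedom, about 1 under counting error alone, reached 17.2 for APP and 3.61 for WT. The APP libraries lay on either side of WT in genes of the striatum, whose 8 markers summed to 184 CPM (counts per 1000000, by TMM library sizes) in APP-3 and 398 in APP-4, against 274 in WT-1 and 293 in WT-2. The dopamine receptor gene Drd2 was counted 25 times in APP-3, and from 129 to 194 times elsewhere. Hypothalamic markers, 6 of 8 of which had a row, summed to 6.05 and 9.30 CPM in APP-3 and APP-4 and to 1.45 and 0.986 CPM in WT-1 and WT-2. Of these 6, 4 rose in APP: the neuropeptide genes Avp, Oxt and Trh, and the transcription factor gene Sim1. Avp reads numbered 2 and 0 in the WT libraries, 18 in APP-3 and 102 in APP-4. The part of these differences in the results below was not tested, and values without APP-3 and without APP-4 are given for each of the 6 genes.

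Neurons of the cortex were well represented in each group. Snap25 of synaptic terminals, the most abundant of 7 neuron markers, stood at 1839 CPM in APP and 2013 CPM in WT, and Slc17a7, the glutamate transporter of excitatory cortical neurons, at 318 and 387 CPM. The 7 summed to 3707 and 3689 CPM in WT-1 and WT-2, 4083 CPM in APP-3 and 3261 CPM in APP-4. The synaptic vesicle gene Syt1 was uneven, at 37830 counts for APP-3 but 20493 for APP-4. In edgeR 0 of the 7 passed, 2 had an unadjusted p under 0.05, and 0 passed in DESeq2.

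Among the 6 genes, Abi3 alone passed both thresholds. It was 2.58-fold higher in APP, with 95% limits of 0.80 and 1.93 on the log2 scale. Over all features, 0.982% passed both thresholds in either direction and 0.908% passed them with a higher level in APP, and for 1 gene of 6, picked with earlier results known, nothing particular is read from these shares. The other 5 genes had log2 fold changes between 0.03 and 0.64, and none passed. The median over the 6 was 0.37, and 0.0038 over all features. In CPM by symbol, both APP libraries lay above both WT libraries for 3 of the 6, Abi3, Cd33 and Ms4a7, which holds for 21.1% of all features. For 0 of the 6 did both APP libraries lie below both WT libraries, which holds for 20.0%. Summed per GENCODE M21 gene identifier, a unit chosen after seeing the data, Ms4a7 turned, at 1.32 and 1.38 CPM in WT and 1.28 and 1.26 CPM in APP, with both APP libraries below both WT libraries, and the median over the 6 was 0.22. Exact two-sided permutation of 2 mice against 2 has a smallest p of 0.33, so the p-values printed here rest on the spread that edgeR shares across genes. In bulk tissue, more cells of a type and more RNA per cell cannot be told apart, and the same holds for fewer cells and less RNA per cell.

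**Figure D1:**
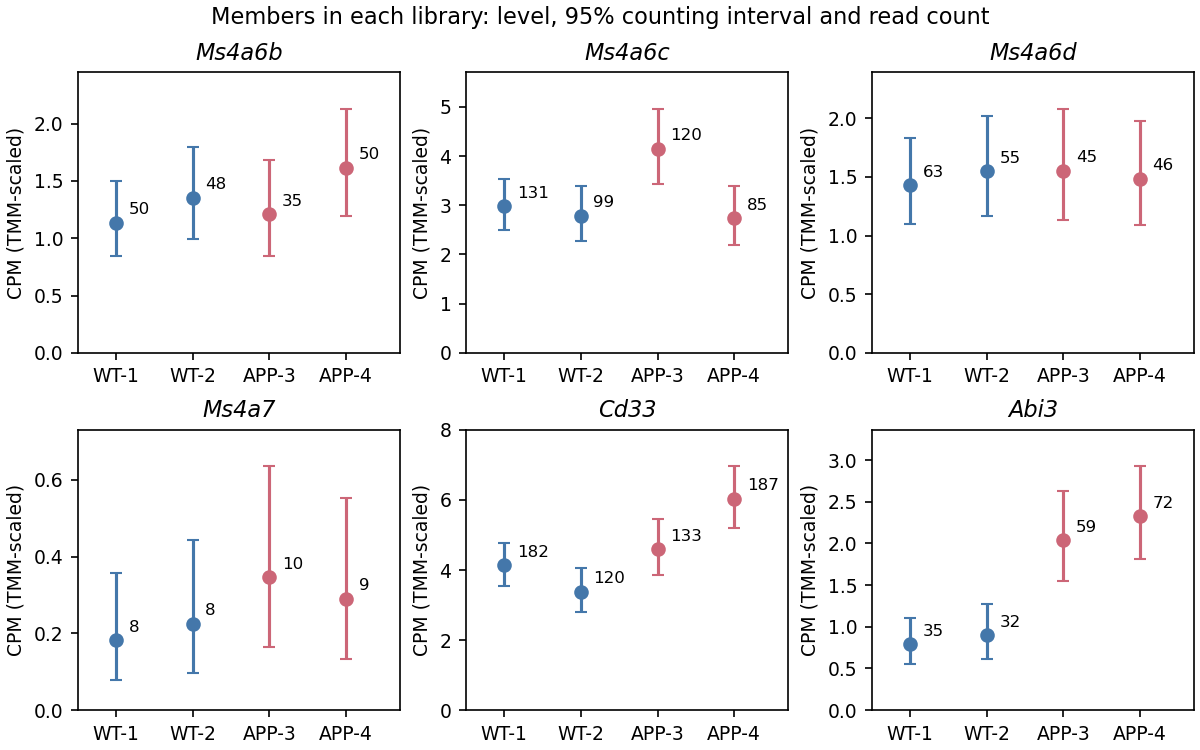
CPM of each of the 6 genes (vertical axes, each from 0) in libraries WT-1 and WT-2 (blue) and APP-3 and APP-4 (red), with 95% counting intervals as bars and read counts beside the points. For Abi3 both APP points lie above both WT points, while for Ms4a6b, Ms4a6c and Ms4a6d the groups overlap.

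For Abi3, 35 and 32 reads were counted in the WT libraries and 59 and 72 in the APP libraries, although the latter were the smaller. In CPM these were 0.795 and 0.902 in WT and 2.04 and 2.32 in APP. The groups did not overlap, and the gap between them was wider than the distance within either group. The means were 2.18 ± 0.202 CPM in APP and 0.849 ± 0.0755 CPM in WT (SD, n = 2), which on the log2 scale was a change of 1.36 with a standard error of 0.25 (edgeR, BH-adjusted p = 0.0317). All counts of Abi3 were on 1 deposited transcript of 4006 nucleotides.

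The direction and size of the Abi3 difference were stable over the settings tried, and its call was not. Over 14 alternatives its log2 fold change ranged from 1.27 to 1.45, and it passed both thresholds in 9. The alternative without a filter is the main fit again, because the minimum of 10 counts removed 0 features. Without APP-3 the change of Abi3 was 1.45, and without APP-4 it was 1.27. Its adjusted p, which ranged from 0.000316 to 0.154, was over 0.05 with DESeq2 (0.07), without WT-1 (0.154), without WT-2 (0.0585) and when transcripts were summed per GENCODE M21 gene identifier in place of the symbol (0.0541, also with the Ms4a6 genes summed). With a library left out, the lone library of its group is assumed to vary like those of the other group.

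**Figure D2:**
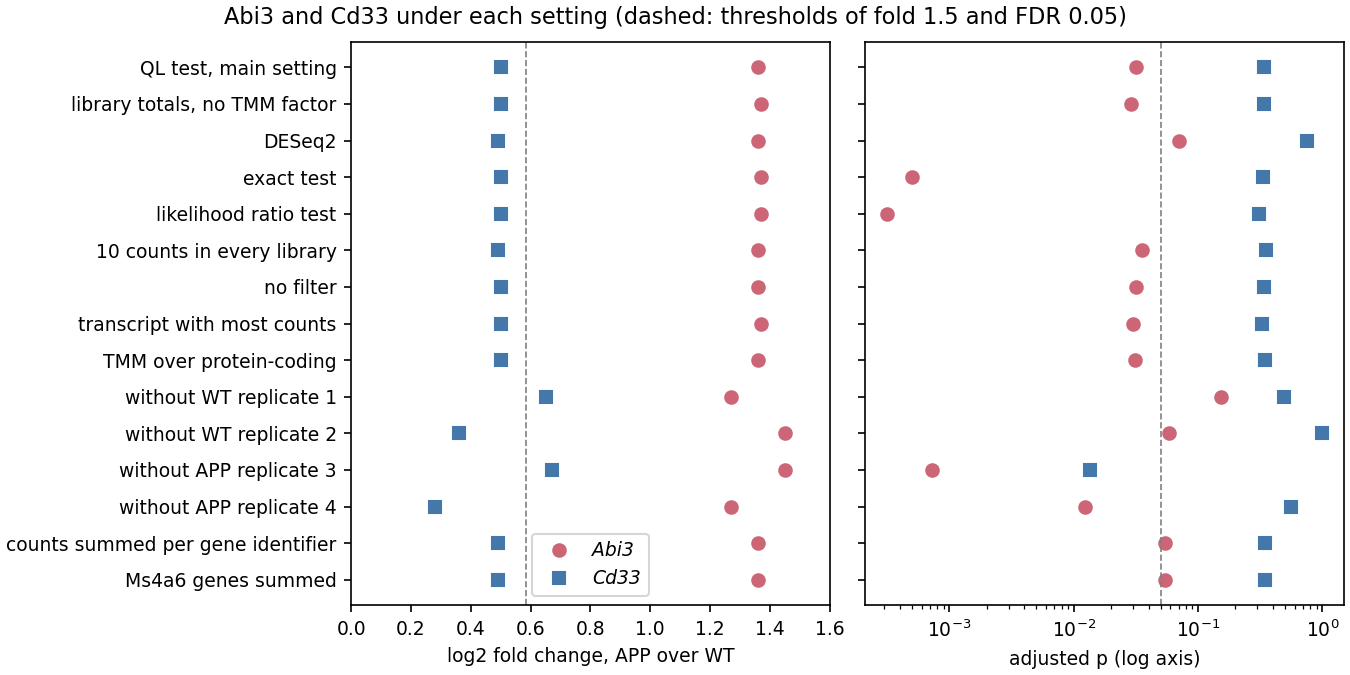
Log2 fold change (left) and adjusted p on a log axis (right) of Abi3 (red circles) and Cd33 (blue squares) under the main setting and each alternative, with the thresholds as dashed lines. Abi3 stays between 1.27 and 1.45 on the left, while on the right it falls on either side of 0.05; Cd33 passes both thresholds only without APP-3.

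By GENCODE M21, Abi3 spans 95830074 to 95842476 of chromosome 11 (GRCm38, minus strand), a crowded stretch. Zfp652, which encodes a zinc finger protein, and Phospho1, which encodes a phosphatase, both on the plus strand, have deposited transcripts whose exons face 72.7% and 39.7% of the exon bases of Abi3. Gngt2, a G protein subunit gene, also overlaps it on the plus strand. The libraries were strand-specific, but whether the counting used the strand is not given in the sources used here, so reads of Abi3 and of its antisense neighbours may not be told apart. None of these neighbours passed the test. Zfp652 had 2662 and 2014 counts in WT and 1913 and 2000 in APP, a log2 fold change of 0.16. Phospho1, with 134 and 98 counts in WT and 74 and 97 in APP, had a change of -0.03, and Gngt2, with 23 and 26 in WT and 22 and 37 in APP, one of 0.65.

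The genes whose profile over the 4 libraries was nearest to that of Abi3 were Samsn1, an adaptor gene of blood cells, Slc37a2, which encodes a sugar phosphate transporter of macrophages, and Psmb8, an immunoproteasome subunit gene. They were found among 16523 features with a mean of at least 1 CPM, by the root mean square difference of log2 CPM centred on each gene's mean, which was 0.0481, 0.0554 and 0.0579. Their own log2 fold changes were 1.40, 1.40 and 1.42, and all 3 passed both thresholds. With 4 libraries the measure is a description only.

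For Cd33, 182 and 120 reads were counted in the WT libraries and 133 and 187 in the APP libraries. In CPM these were 4.13 and 3.38 in WT and 4.60 and 6.04 in APP, so that the groups did not overlap, but APP-3 was closer to WT-1 than to APP-4. It differed by 0.50 on the log2 scale, with 95% limits of 0.07 and 0.92, and did not pass (edgeR, BH-adjusted p = 0.342). Its unadjusted p was 0.0256 in edgeR's fit, a level under 0.05 that 11.1% of all features reached, and of the 6 genes 2, Cd33 and Abi3. Without APP-3 the log2 fold change was 0.67 with adjusted p = 0.0135, past both thresholds, and without APP-4 it was 0.28. In the other 13 alternatives the adjusted p lay between 0.311 and 0.993. Cd33 spans 43524216 to 43544428 of chromosome 7 (GRCm38, minus strand), and its counts were on a single deposited transcript.

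The Ms4a family lies together on chromosome 19, where GENCODE M21 has 19 protein-coding Ms4a genes between 10962293 and 11640851 of GRCm38. Of these, 6 had a row in the table. Ms4a7 lies at 11321039 to 11336146 on the minus strand, Ms4a6c at 11469366 to 11482192 and Ms4a6b at 11516512 to 11531256 on the plus strand, and Ms4a6d at 11586604 to 11604849 on the minus strand.

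Ms4a6b, Ms4a6c and Ms4a6d are close copies, and the values of each depend on which copy a read was given to. The authors allowed up to 7 mismatches in reads of 100 bases. Every run of 100 bases of the members' deposited transcripts was therefore compared, on the same strand and without gaps, with the 141767 transcripts of GENCODE M21. In the coding transcript of Ms4a6b, 22.0% of the runs matched Ms4a6c and 12.0% matched Ms4a6d within 7 mismatches. In Ms4a6c, 22.7% of the runs matched Ms4a6b, and 29.2% matched any gene other than itself, Ms4a6b included. Runs that matched genes outside the 6 and none of the 6 made up 5.45%. In the coding transcript of Ms4a6d, 15.5% of the runs matched another member. For Abi3, Cd33 and the coding transcript of Ms4a7, 0 runs matched another gene. How reads that fit several genes were assigned is not given in the sources used here.

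The likeness is shown by a coding stretch of 90 bases in exon 3 of 7 of each gene, the one in which Ms4a6c and Ms4a6d together had the fewest mismatches to Ms4a6b. It lies at chr19:11521706-11521795 (plus strand) in Ms4a6b, at chr19:11472428-11472517 (plus strand) in Ms4a6c and at chr19:11601840-11601929 (minus strand) in Ms4a6d, all of GRCm38, and was taken from the transcript sequences of GENCODE M21. Capitals mark the bases that differ from Ms4a6b, 11 in Ms4a6c and 4 in Ms4a6d.
Ms4a6b: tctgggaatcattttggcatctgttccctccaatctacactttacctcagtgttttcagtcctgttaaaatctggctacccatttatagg
Ms4a6c: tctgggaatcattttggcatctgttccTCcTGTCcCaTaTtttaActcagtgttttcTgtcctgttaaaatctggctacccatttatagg
Ms4a6d: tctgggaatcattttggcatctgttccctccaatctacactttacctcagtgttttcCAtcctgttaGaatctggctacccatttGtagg
Here Ms4a6d is nearer to Ms4a6b than Ms4a6c is, and Ms4a6c and Ms4a6d differ from each other at 14 of the 90 bases.

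For Ms4a6b, 50 and 48 reads were counted in WT and 35 and 50 in APP, or 1.14 and 1.35 CPM in WT and 1.21 and 1.61 CPM in APP. The groups overlapped, and the log2 fold change was 0.19 (95% limits -0.42 and 0.80), with 0.38 without APP-3 and -0.03 without APP-4. A second deposited transcript of the gene, annotated in GENCODE M21 as a retained intron, had a blank symbol and 22, 26, 23 and 19 counts in WT-1, WT-2, APP-3 and APP-4. Summed with it, Ms4a6b again had a log2 fold change of 0.19.

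For Ms4a6c, 131 and 99 reads were counted in WT and 120 and 85 in APP, or 2.98 and 2.79 CPM in WT and 4.15 and 2.74 CPM in APP. APP-3 was the highest library and APP-4 the lowest, so the 2 APP mice lay on either side of WT. The log2 fold change was 0.25 (95% limits -0.24 and 0.74), with 0.52 without APP-4 and -0.08 without APP-3. A noncoding gene on the opposite strand, BE692007, has exons that face 59.1% of the exon bases of Ms4a6c and had 179, 138, 131 and 117 counts in WT-1, WT-2, APP-3 and APP-4.

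For Ms4a6d, 63 and 55 reads were counted in WT and 45 and 46 in APP, or 1.43 and 1.55 CPM in WT and 1.56 and 1.48 CPM in APP. The libraries lay close together, and the log2 fold change was 0.03 (95% limits -0.51 and 0.57), with -0.01 without APP-3, 0.06 without APP-4 and -0.03 without WT-1. Of its counts, 76.1% were on the coding transcript, which taken alone had a log2 fold change of -0.17. Ms4a6b, Ms4a6c and Ms4a6d were also summed as 1 feature. If each read was counted once, this sum does not depend on how reads were split between the 3. Reads dropped, counted on several copies or shared with other genes could still change it. The sum over all their transcripts was 266 and 228 in the WT libraries and 223 and 200 in the APP libraries. Its log2 fold change was 0.18 (adjusted p = 0.704), and it was not called.

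Ms4a7 is better known from macrophages at the borders of the brain than from microglia of the tissue itself. Under its symbol it had 8 counts in each WT library and 10 and 9 in APP-3 and APP-4. The counting intervals of all 4 libraries overlapped, and a log2 fold change of 0.64 had 95% limits of -0.68 and 1.96, so that a difference was not detectable at this depth. Without APP-3 the log2 fold change was 0.51, and without APP-4 it was 0.76. Most of its reads were elsewhere: a retained intron transcript with a blank symbol held 80.9% of the counts of the gene, with 50 and 41 in WT and 27 and 30 in APP. Summed over both transcripts Ms4a7 had 58 and 49 counts in WT and 37 and 39 in APP, and the log2 fold change turned to -0.09 (95% limits -0.69 and 0.51).

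**Figure D3:**
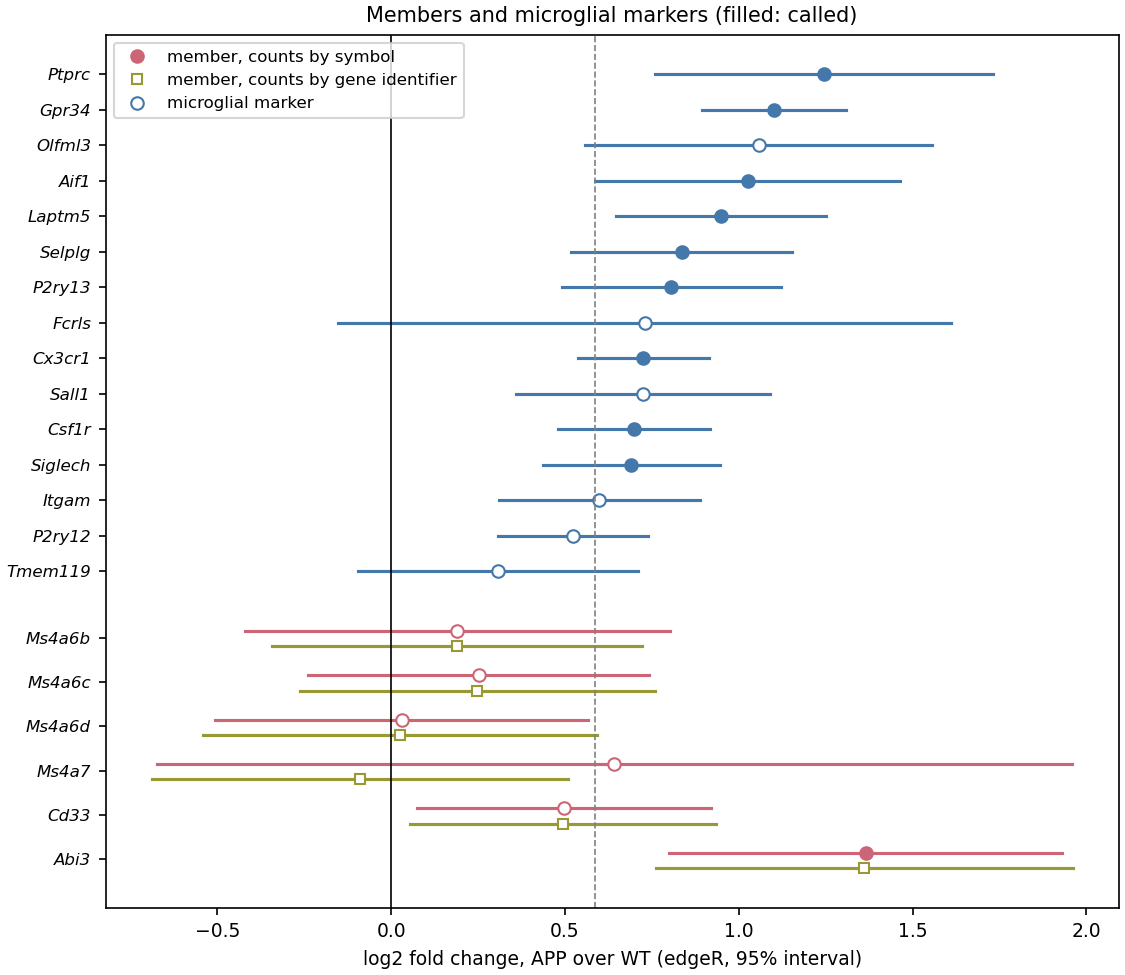
Log2 fold change of APP over WT with its 95% interval from edgeR for the 6 genes, with counts by symbol (red) and by gene identifier (olive squares), and for 15 of the 16 microglial markers (blue); filled points passed both thresholds and the dashed line is a fold of 1.5. The 3 Ms4a6 genes lie at 0.25 or below and the markers shown at 0.31 or above, and Ms4a7 moves from 0.64 to -0.09 with the way it is summed.

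Promoters were compared because the Ms4a genes are neighbours and copies. RefSeq windows on GRCm38, from 250 bases before to 50 after a start, were matched for 4 of the 6 genes, in 5 windows, with no entry for Abi3 and Ms4a6d. The RefSeq start of Ms4a6b, 11518559, lies 2047 bases inside the span that GENCODE M21 gives the gene and is where its deposited coding transcript starts, and that of Cd33 lies 11257 bases inside. The windows were searched on both strands for AGGAAGT, the core that PU.1, a master regulator of macrophage genes, binds, and for GAAANNGAA, the spacing that interferon regulatory factors bind. The letters AGGAAGT were present 2 times in the window of Ms4a6b and once in that of Ms4a6c, and in 9.35% of all 32851 windows of the table. The letters GAAANNGAA were present once each in the windows of Ms4a6b and Ms4a6c and in both windows of Ms4a7, and in 8.56% of all windows. The window of Cd33 held neither. The 2 motifs did not overlap in these windows, and a match is a description of letters and not of binding.

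A stretch of 80 bases shows how far Ms4a6b and Ms4a6c share this region, with GAAANNGAA in capitals. It is the closest pair of 80 bases before their RefSeq starts, differs at 14 bases and touches no annotated exon, but in Ms4a6b it lies within the GENCODE M21 span of the gene. In Ms4a6b it lies at chr19:11518311-11518390 and in Ms4a6c at chr19:11469193-11469272, both on the plus strand of GRCm38.
Ms4a6b: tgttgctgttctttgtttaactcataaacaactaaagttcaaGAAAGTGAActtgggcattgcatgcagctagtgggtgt
Ms4a6c: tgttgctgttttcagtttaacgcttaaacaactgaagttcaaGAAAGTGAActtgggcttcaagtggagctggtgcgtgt
The motif ends 198 bases before the RefSeq start of Ms4a6b and 125 bases before that of Ms4a6c.

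Levels were compared between genes per kilobase of transcript, using GENCODE M21 lengths. In WT, Cd33 had the highest level, 1.92 ± 0.271 CPM per kilobase (SD, n = 2), followed by Ms4a6c with 1.57 ± 0.0714 and Ms4a6d with 1.33 ± 0.0154. Ms4a6b had 0.738 ± 0.0909, Abi3 0.212 ± 0.0188 and Ms4a7 0.129 ± 0.0196 CPM per kilobase. The order was the same in APP, where Cd33 had 2.71 ± 0.519 and Abi3 0.545 ± 0.0503 CPM per kilobase. In APP the level of Ms4a6d, 1.51 ± 0.0123, lay within the 2 libraries of Ms4a6c, at 2.25 and 1.49, and these neighbours did not differ beyond their spread. No other neighbours in the order had overlapping libraries in either group. The level of Ms4a6d includes a processed transcript of only 599 nucleotides, which held 23.9% of its counts and weighs more per kilobase. Its coding transcript of 1418 nucleotides had 49 and 46 counts in WT and 33 and 31 in APP. The place of Ms4a6d above Ms4a6b may not hold for coding transcripts alone, which were not ranked. The last place of Ms4a7 holds for the transcript under its symbol. Over all deposited transcripts of a gene, a unit also chosen after seeing the data, Ms4a7 had 0.447 ± 0.0235 CPM per kilobase in WT, above Abi3, and 0.465 ± 0.0178 in APP, below Abi3, and on that scale Ms4a6b had 0.881 ± 0.129 in WT and kept its place.

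Microglial markers as a whole were higher in APP. Of 16 markers, 10 rose and 0 fell. Csf1r, the receptor that keeps microglia alive, was counted 2059 and 1550 times in WT and 1901 and 2512 times in the smaller APP libraries, a log2 fold change of 0.70. The lipid receptor gene Gpr34 had one of 1.10, and Ptprc, the pan-leukocyte phosphatase CD45, one of 1.25. The 6 that did not pass were P2ry12, Tmem119, Itgam, Sall1, Fcrls and Olfml3, with log2 fold changes between 0.31 and 1.06, and of these P2ry12 missed the fold threshold alone. Fcrls was uneven, with 257 and 396 counts in WT and 596 and 231 in APP. The median over the list was 0.77. The summed level was 289 and 292 CPM in WT-1 and WT-2 and 472 and 537 CPM in APP-3 and APP-4.

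Set against that sum, which was itself higher in APP (log2 ratio 0.80), the Ms4a6 genes had lower ratios in APP and Abi3 a higher one. Ms4a6d had 4.95 and 5.31 CPM per 1000 CPM of microglial markers in WT-1 and WT-2 and 3.30 and 2.76 in APP-3 and APP-4. Ms4a6b had 3.93 and 4.63 in WT and 2.57 and 3.0 in APP on this scale. Ms4a6c had 10.3 and 9.55 in WT and 8.80 and 5.11 in APP, with APP-3 near WT. For each of these 3 genes both APP libraries lay below both WT libraries on this scale, and together the 3 had a ratio of APP to WT of 0.66. In CPM their groups overlapped, with log2 fold changes of 0.03 for Ms4a6d, 0.19 for Ms4a6b and 0.25 for Ms4a6c. A gene with an unchanged CPM is also lower on this scale, because the divisor was higher in APP. The share of all features that lie so on this scale was not computed. Cd33 had 14.3 and 11.6 in WT and 9.75 and 11.2 in APP, an order that did not hold in every alternative sum tried. Ms4a7 had 0.629 and 0.772 in WT and 0.733 and 0.541 in APP, and its groups overlapped. Summed over both its transcripts, Ms4a7 had 4.56 and 4.73 in WT and 2.71 and 2.34 in APP, and both APP libraries were then lower. Abi3 had 2.75 and 3.09 in WT and 4.32 and 4.33 in APP, a ratio of 1.48. These ratios are descriptions with no test, they carry the counting error of genes with few reads, and they do not tell a lower level in microglia from a change in the markers.

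**Figure D4:**
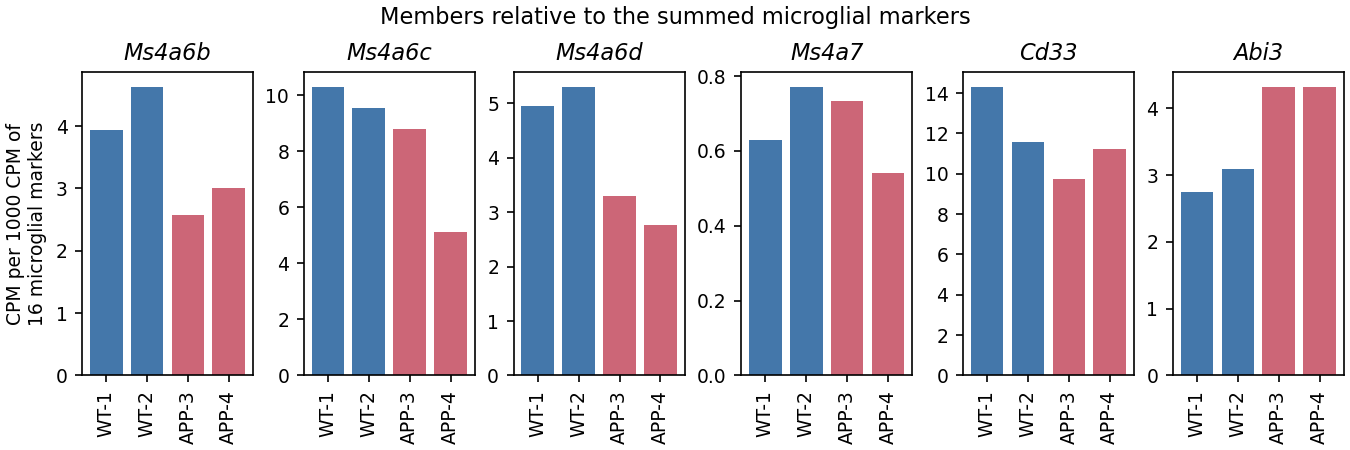
CPM of each gene per 1000 CPM of the 16 summed microglial markers (vertical axes from 0) in the WT (blue) and APP (red) libraries. Bars of both APP libraries are lower than those of both WT libraries for Ms4a6b, Ms4a6c, Ms4a6d and, for this sum but not in every alternative, Cd33, and higher for Abi3, at 4.32 and 4.33.

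Border macrophages are the other resident macrophages of the brain. Of 11 markers, 0 passed in edgeR, 1 had an unadjusted p under 0.05 and 0 passed in DESeq2, with a median of 0.01 for the log2 fold change. Their summed level was 26.7 and 24.7 CPM in WT-1 and WT-2 and 28.3 and 25.3 CPM in APP-3 and APP-4, and Stab1, a scavenger receptor gene, was the most abundant, at 7.37 CPM in APP and 7.75 CPM in WT. The mannose receptor gene Mrc1 had a log2 fold change of -0.05.

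Other genes of the Ms4a family, counted with the related Tmem176a and Tmem176b, had a row for 4 of 17, of which 1 rose and 0 fell, with a median log2 fold change of 0.72. Tmem176a, which encodes a membrane protein of myeloid cells, rose, with 146 and 104 counts in WT and 158 and 182 in APP, a log2 fold change of 0.86 (adjusted p = 0.0376). Tmem176b had one of 0.58 and was not called. Ms4a4a, the mouse gene named like the human MS4A4A, had 12 and 1 counts in WT and 12 and 10 in APP. Ms4a1, the CD20 gene of B cells, was counted only on a transcript with a blank symbol, with 65 and 48 counts in WT and 34 and 38 in APP.

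Cd33 has relatives among the other Siglecs. Of 8 such genes, 6 had a row, 3 rose and 0 fell, and the median log2 fold change was 0.70. Siglecf, listed in the table as SIGLEC5, had 9 counts in each WT library and 44 and 35 in APP, a log2 fold change of 2.52 (adjusted p = 0.0144). Siglech, which is also among the microglial markers, had one of 0.69. Mag, the Siglec of myelin and the most abundant of the list, had 1234 and 1138 counts in WT and 1547 and 1404 in APP, a log2 fold change of 0.72, and it belongs to oligodendrocytes. Of the 6 oligodendrocyte markers Mag alone was called, and their sum was 968 and 1085 CPM in WT and 1501 and 1317 CPM in APP.

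Beneath the Siglecs, inhibitory motifs act through phosphatases and activating receptors through adaptors with ITAM motifs. Of 8 signalling genes, 7 had a row, 3 rose and 0 fell, with a median log2 fold change of 0.77. Tyrobp, the ITAM adaptor of TREM2 and of several Siglecs, had 241 and 197 counts in WT and 641 and 765 in APP, a log2 fold change of 2.09 with adjusted p = 9.00e-06. Ptpn6, which encodes the phosphatase SHP-1, had 90 and 66 counts in WT and 112 and 156 in APP, a log2 fold change of 1.19 (adjusted p = 0.0201). Inpp5d, which encodes the lipid phosphatase SHIP1, had one of 0.80. The widely expressed phosphatase gene Ptpn11, the most abundant of the list, had one of 0.04 and was not called.

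Genes that make, transfer or remove sialic acid, the ligand of Siglecs, were for the most part flat. Of 28, 27 had a row, 1 rose and 0 fell, and the median log2 fold change was -0.05. St8sia6, a sialyltransferase gene, rose, with 101 and 73 counts in WT and 111 and 134 in APP, a log2 fold change of 0.90, with an adjusted p of 0.0497 in edgeR, and with DESeq2 0 of the list passed. The most abundant, St8sia3 and St6gal2, had log2 fold changes of -0.06 and -0.16 and were not called.

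The partners of Abi3 in actin branching were mostly not called. Of 12 genes of the Abi family, the WAVE complex and its GTPases Rac1 and Rac2, all had a row. Of these, 1 rose and 0 fell, with a median log2 fold change of 0.02. The one that rose was Nckap1l (HEM1), the WAVE subunit of blood cells and microglia, with 535 and 370 counts in WT and 493 and 648 in APP, a log2 fold change of 0.75 (adjusted p = 0.021). Its widely expressed relative Nckap1, the most abundant of the list, had one of -0.06, and Cyfip2 had one of -0.22. Rac2, the Rac of blood cells, had one of 0.51 and Wasf2 one of 0.46, and neither was called. The relatives of Abi3, Abi1 and Abi2, stood at 114 and 294 CPM in APP and 118 and 314 CPM in WT, with log2 fold changes of -0.05 and -0.10.

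Of 8 other microglial genes tied to Alzheimer risk, 4 rose and 0 fell, with a median log2 fold change of 0.77. Trem2, a lipid-sensing receptor gene, had 228 and 177 counts in WT and 526 and 547 in APP, a log2 fold change of 1.82 with adjusted p = 4.37e-05. Tyrobp, named above, also rose. Grn, which encodes the lysosomal protein progranulin, had one of 0.76, and Inpp5d was the fourth. Apoe, a lipid carrier gene that astrocytes express most and the most abundant of the list, had one of 0.36 and was not called. Plcg2, a phospholipase gene, had one of 0.77 with adjusted p = 0.0559, Spi1, the gene of PU.1, one of 0.42 and Abca7 one of 0.07.

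**Figure D5:**
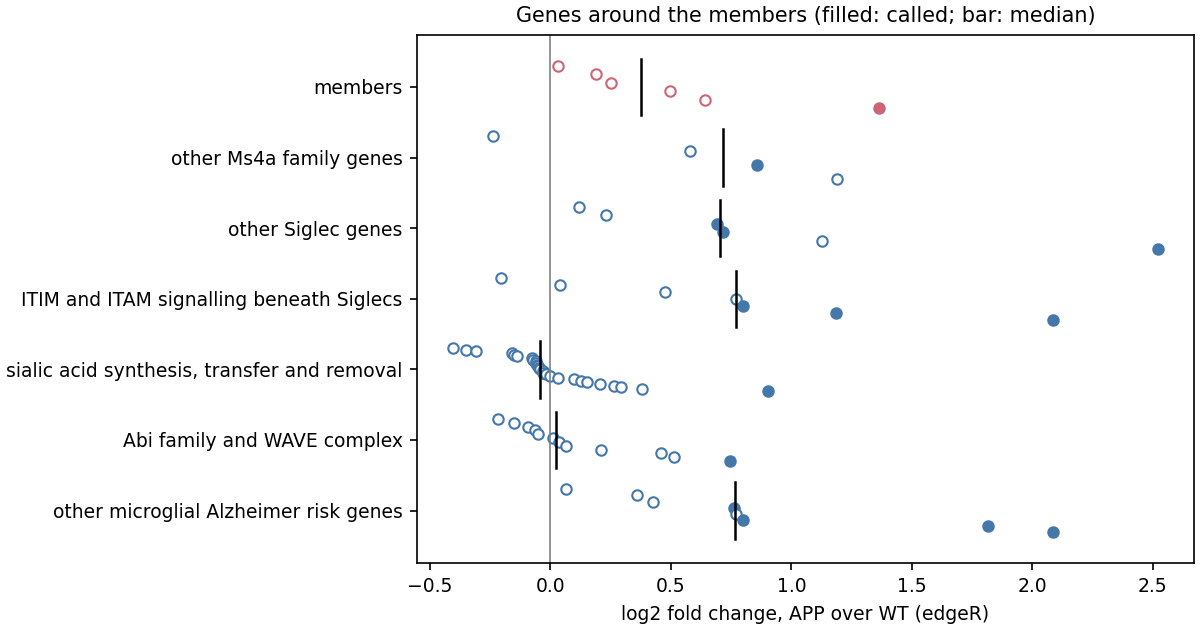
Log2 fold change of APP over WT (horizontal axis) for the 6 genes (red) and for each gene of 6 related lists (blue); filled points passed both thresholds and black bars are medians. The bars of the sialic acid and WAVE lists lie at -0.05 and 0.02, and those of the Siglec, other Ms4a, signalling and other risk gene lists at 0.70, 0.72, 0.77 and 0.77.

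Cells from blood can also express Cd33, Ms4a genes and Abi3, and each of their marker lists had genes without a row. Of 9 neutrophil markers 4 had a row, and Ly6g, Ngp, Camp, Retnlg and Mmp8 had none, in a table whose lowest transcript total was 10 counts. The list summed to 4.77 and 4.90 CPM in WT-1 and WT-2 and 9.23 and 8.20 CPM in APP-3 and APP-4, mostly through Csf3r, a cytokine receptor gene that rose with a log2 fold change of 0.82 and that microglia also express. The granule genes had few reads: S100a8 had 12 and 4 counts in WT and 3 and 14 in APP, S100a9 had 4 and 5 in WT and 5 and 13 in APP, and Ltf had 2 and 0 in WT and 0 and 12 in APP. None of these 3 was called, all were highest in APP-4, as Cd33 was, and the median log2 fold change of the list was 1.09. Of 6 monocyte markers 3 had a row, Plac8 and Chil3 being among those without, and 0 passed in edgeR, 0 had an unadjusted p under 0.05 and 0 passed in DESeq2. The monocyte marker Ccr2 had 24 and 13 counts in WT and 23 and 17 in APP. The sum of the monocyte markers, mostly of the widely expressed Fn1, was 21.02 and 16.8 CPM in WT and 20.98 and 16.7 CPM in APP.

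Of 7 B cell markers 3 had a row, Cd79b, Pax5 and Blk being among those without, and 0 passed in edgeR, with an unadjusted p under 0.05 or in DESeq2. Their sum was 4.59 and 7.95 CPM in WT and 4.94 and 5.91 CPM in APP, with Ighm the most abundant. Of 8 T and NK cell markers 4 had a row, without Cd3e, Cd3g, Cd2 and Nkg7, and 0 passed in edgeR, 1 had an unadjusted p under 0.05 and 0 passed in DESeq2, with sums of 4.52 and 5.10 CPM in WT and 3.87 and 7.71 CPM in APP and Cd4 the most abundant. Of 7 mast cell markers Hdc alone had a row, without Cpa3, Mcpt4, Tpsb2, Cma1, Fcer1a and Ms4a2, at 0.315 CPM in APP and 0.292 CPM in WT, and 0 passed in edgeR, with an unadjusted p under 0.05 or in DESeq2. Of 7 dendritic cell markers 5 had a row, without Clec9a and Ccr7, and 1 rose, the integrin gene Itgax, with 16 and 13 counts in WT and 214 and 219 in APP, a log2 fold change of 4.30. Activated microglia are also known to express Itgax. The other 4 had log2 fold changes between -0.78 and -0.03 and were not called, and the median of the list was -0.23. Zbtb46 was the most abundant, and the list summed to 28.7 and 29.4 CPM in WT and 31.1 and 31.6 CPM in APP, of which Itgax made up 0.364 and 0.366 CPM in WT and 7.40 and 7.07 CPM in APP.

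Glia other than microglia and vessels were compared in the same way. Of 6 astrocyte markers 2 rose, Gfap, the filament gene of reactive astrocytes, with a log2 fold change of 2.82, and the water channel gene Aqp4 with one of 0.73, and the sum, mostly of Slc1a2, was 4106 and 3718 CPM in WT and 4591 and 4942 CPM in APP. Of 6 endothelial markers 0 passed in edgeR, with an unadjusted p under 0.05 or in DESeq2, with sums of 49.96 and 44.9 CPM in WT and 48.8 and 44.9 CPM in APP and Slco1a4 the most abundant. Of 4 choroid plexus markers 3 had a row, without Folr1, with Clic6 the most abundant and sums of 2.70 and 5.24 CPM in WT and 4.60 and 5.36 CPM in APP. Of these 3, as of the 8 striatum markers above, 0 passed in edgeR, with an unadjusted p under 0.05 or in DESeq2. Several genes stand in more than 1 list: Tyrobp, Inpp5d and Plcg2 among signalling and risk genes, Siglech, Siglec1 and Mag among Siglecs and markers, and Ms4a1 among Ms4a genes and B cell markers. The part of these cell types in the values of the 6 genes was not tested.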

How the data were processed

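The authors mapped paired reads of 100 bases with FANSe2 to Ensembl mouse RNA sequences, with up to 7 mismatches, and deposited read counts per transcript. The lowest transcript total was 10. The submitters' processing notes also name CASAVA 1.8, edgeR and hg19, a human build not used here. The deposited table also holds 4 columns of log2 CPM per library and the authors' comparison (log fold change, mean level, p-value and FDR), and none of these was used. WT columns were matched to mice by number, APP columns to the group alone.

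Transcripts were summed by symbol with capitals ignored, and the 8274 without a symbol stayed separate. GENCODE M21 (GRCm38) held 98.2% of identifiers. A minimum of 10 counts over the 4 libraries removed 0 features. The test was glmQLFTest of edgeR 4.0.16 (R 4.3.3, limma 3.58.1) with TMM factors and no covariate, at an FDR of 0.05 and a fold of 1.5, with 8.15 prior degrees of freedom. DESeq2 1.42.0, other edgeR tests, scalings, filters, thresholds and units of counting, and each library left out, were alternatives. The code was tested on simulated data. Counting intervals are exact Poisson limits at 95%. The reads carry no molecular identifiers, so these limits cover counting error only. Python 3.11.15, pandas 2.3.3, numpy 2.4.6, scipy 1.17.1 and matplotlib 3.10.9 made tables and figures.

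Members and lists were chosen with earlier results of these data known. Named are the 6 members, App, Prnp, counted Ms4a genes, the 2 most abundant and 2 most changed called genes of each list, and the 3 nearest in profile to a called member. Other names were chosen after their values were seen. Some genes of these lists are not reported here.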

Additional observations from a re-analysis of the deposited data

How the results depend on the processing

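Of 16 alternatives, 10 gave 1 of the 6 genes past both thresholds, as reported. The number was 0 with DESeq2, per GENCODE M21 gene identifier and with the Ms4a6 genes summed, and ranged from 0 to 2 with a library left out (0 without WT-1 or WT-2, 2 without APP-3). The alternative without a filter is the main fit again, because the filter removed 0 features. Those by FDR alone and at a fold of at least 2 also reuse the main fit. Calls with a library left out, planned as values only, the sums by identifier and of the Ms4a6 genes, and the marker sum without Fcrls were chosen after seeing the data. Log2 fold changes with a library left out ran from 1.27 to 1.45 for Abi3, 0.28 to 0.67 for Cd33, 0.48 to 0.79 for Ms4a7, -0.03 to 0.38 for Ms4a6b (lowest without APP-4), -0.08 to 0.52 for Ms4a6c (lowest without APP-3) and -0.03 to 0.09 for Ms4a6d (-0.03 without WT-1, -0.01 without APP-3). The sign also turned for Ms4a6d with its coding transcript alone (-0.17) and for Ms4a7 in both sums by identifier (-0.09), which add its retained intron transcript. Why the others turned was not tested. Relative to microglial markers, the log2 ratio of Abi3 was 0.57 with and without Fcrls, and the ratios of all members kept their sign in each alternative sum. Over all features, 225 passed both thresholds in the main setting and from 162 (per gene identifier) to 730 (without APP-3) in the alternative fits, with 184 without WT-1, 211 without WT-2 and 578 without APP-4. Ms4a7 has no value with 10 counts required in every library, and no adjusted p in DESeq2. Protein identity between members, planned, was not run. No paired analysis was run, because the sources used here describe no pairs of WT and APP mice. The APP columns carry the numbers 3 and 4, which the sample labels do not use. The members had 8 to 187 counts per library, which limits the precision of those with few.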
